A study of Homo sapiens with 2 samples.

Results

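The FOS genes (FOS, FOSB, FOSL1 and FOSL2) and the JUN genes (JUN, JUNB and JUND) encode the subunits of AP-1, and this account gives the Evi1Δ324 ChIP-seq peaks around these 7 genes. The members were chosen by name, with earlier results of these data known. Each was placed at a position of the hg18 genome build given to 10 kb. Peaks with a midpoint at most 100 kb from such a position, called a gene site below, were counted. Of the 6943 peaks in the list, 11 met this rule, and they lay at 5 of the 7 sites. Of positions taken every 10 kb along chromosomes 1 to 22 and X, 34.3% had a peak midpoint within 100 kb. SKOV-3, an established ovarian carcinoma cell line, was transfected with the plasmid pCMV-Flag-Evi1Δ324, in which a CMV promoter drives Flag-tagged Evi1Δ324, a form of the zinc finger protein EVI1, and was crosslinked 3 days later. DNA precipitated with the Flag M2 antibody and DNA from the chromatin before precipitation gave 1 library each, both from transfected cells. The peaks come from the precipitated library; no file of the input was analysed here. There were no replicates and no precipitation from cells without the tagged protein, so nothing below is tested between samples.

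AP-1 is a dimer that binds DNA through a basic region next to a leucine zipper. FOS proteins need a JUN partner, whereas JUN proteins can also pair with each other. Several of these genes are immediate early genes, transcribed within minutes of a growth signal, and AP-1 takes part in proliferation and invasion of carcinoma cells. EVI1 has been reported to raise AP-1 activity and to act on the FOS promoter, and the study from which these libraries come examined EVI1 together with FOS. The question put to the peak list is thus whether the tagged protein was mapped near the genes of the AP-1 subunits.

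To show the regulatory DNA at issue, the bases before the start of transcription are given for the 4 genes that had a peak within 100 kb and an entry in the RefSeq promoter table (GRCh38.p14). They are chr2:28392608-28392857 on the plus strand for FOSL2, chr1:58784048-58784297 on the minus strand for JUN, chr19:12791236-12791485 on the plus strand for JUNB and chr19:18281623-18281872 on the minus strand for JUND. FOSL1 had no entry. Each sequence has 250 bases, 5′ to 3′ toward the start, and capitals mark a match to a motif searched on both strands.
FOSL2: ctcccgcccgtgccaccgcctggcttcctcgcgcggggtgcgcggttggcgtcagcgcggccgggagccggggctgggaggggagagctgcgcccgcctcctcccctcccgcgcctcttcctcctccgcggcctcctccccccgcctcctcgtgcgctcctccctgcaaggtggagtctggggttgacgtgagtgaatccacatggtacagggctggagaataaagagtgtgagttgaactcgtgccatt
JUN: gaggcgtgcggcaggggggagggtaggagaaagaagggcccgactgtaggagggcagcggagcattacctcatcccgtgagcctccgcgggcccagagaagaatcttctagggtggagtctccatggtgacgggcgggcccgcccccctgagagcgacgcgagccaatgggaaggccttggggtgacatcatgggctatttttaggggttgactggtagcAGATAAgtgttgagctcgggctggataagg
JUNB: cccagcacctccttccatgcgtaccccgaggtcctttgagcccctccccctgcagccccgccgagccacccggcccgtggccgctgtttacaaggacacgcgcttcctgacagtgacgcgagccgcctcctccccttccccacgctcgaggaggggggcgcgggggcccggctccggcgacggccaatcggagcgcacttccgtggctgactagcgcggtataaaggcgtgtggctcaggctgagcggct
JUND: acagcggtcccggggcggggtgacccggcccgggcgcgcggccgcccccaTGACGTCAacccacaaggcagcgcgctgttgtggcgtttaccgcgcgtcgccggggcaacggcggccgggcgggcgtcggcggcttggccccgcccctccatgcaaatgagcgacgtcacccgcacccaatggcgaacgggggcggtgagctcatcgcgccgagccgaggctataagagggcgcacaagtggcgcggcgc

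In these windows JUND held 1 cAMP response element, TGACGTCA, from 200 to 193 bases before its start, a sequence found in 1.65% of the 35116 RefSeq promoters. JUN held 1 copy of AGATAA, the GATA-like core of sites for the first zinc finger domain of EVI1, from 30 to 25 bases before its start. That motif occurred in 9.17% of all promoters. Whether Evi1Δ324, the form precipitated here, binds it or the other EVI1 motifs was not tested. The other motifs were the AP-1 element TGACTCA (4.20% of all promoters), the longer EVI1 form ACAAGATAA (0.165%), GAAGATGAG for the second finger domain of EVI1 (0.265%), the ETS site CCGGAAGT (3.42%) and the serum response element (1.16%). ACAAGATAA contains AGATAA, and no other motif of the set contains another. Among the 6 genes with an entry, FOS and FOSB included, none of these 5 motifs was found. The search covered only the 250 bases before the start and only the motifs as written. Variants with a changed letter and sites farther from the start would be missed. The result thus does not show that a gene lacks such a site. GC content of the 6 windows was 62.0% (JUN) to 74.8% (JUND), above the median of 58.0% over all promoters. The peaks are placed on hg18 and the promoters on GRCh38.p14, so the sequence under the peaks was not analysed here and no peak was assigned to a promoter.

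Each peak carries a whole number, read here as a count of tags (sequenced reads). It also carries another value, read as a fold, the authors' own ratio of the peak to a background. The list has no header, so both readings come from the values. The list holds 76115 tags, 82 of them in the 11 peaks near the gene sites. Of all peaks, 59.5% had the minimum of 5 tags and 14.1% had at least 8. The median fold was 14.7, with quartiles of 13.8 and 19.4, and the median width was 126 bp. The 11 peaks near the gene sites had 5 to 15 tags with a median of 6, folds of 8.50 to 24.2 with a median of 16.2, and widths of 94 to 239 bp with a median of 150 bp. Of their folds, 6 lay above the list median, 1 on it and 4 below. Counting error is wide at such depth: 6 tags have an exact Poisson 95% interval of 2.20 to 13.1, and PCR copies would widen it.

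**Figure D1:**
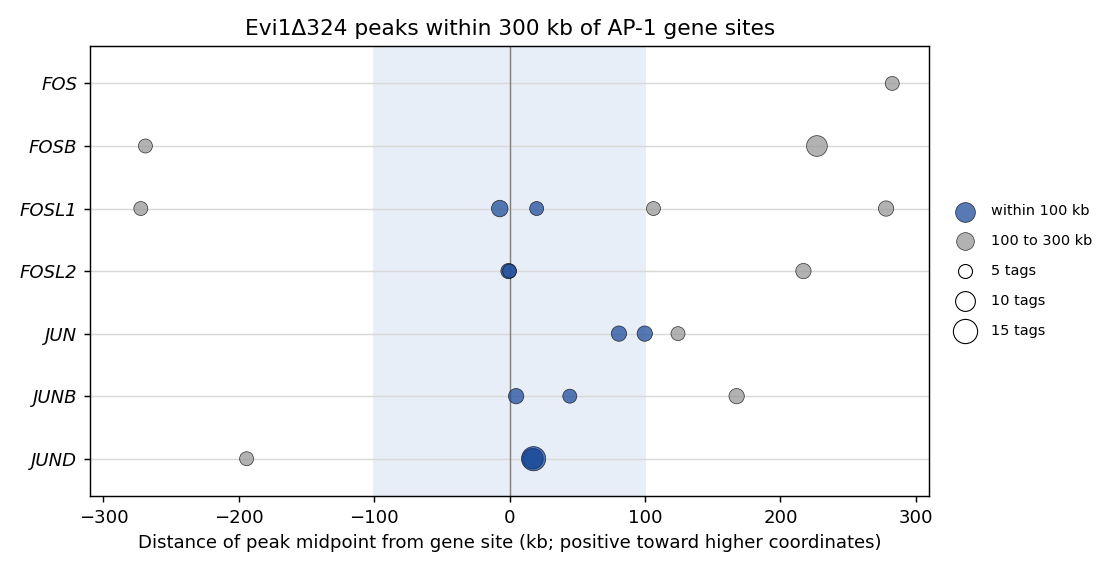
Each circle is a peak at its distance in kb from the gene site, its area growing with its tags; the shaded band is the window of 100 kb on either side. FOSL1, FOSL2, JUN, JUNB and JUND have peaks in the band and FOS and FOSB have none; the 2 peaks of FOSL2 and the 3 of JUND overlap each other at this scale.

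All 3 JUN genes had a peak within 100 kb, with 7 peaks and 59 tags between them. An even spread along their chromosomes would put 2.38 peaks there. Of positions every 10 kb, 53.3% on chromosome 19 (JUNB and JUND) and 33.1% on chromosome 1 (JUN) had a peak midpoint within 100 kb. With peaks at most 1 kb apart taken as 1, JUN and JUNB kept 2 each and JUND 1. With each peak counted, JUND, the most evenly expressed JUN gene in most tissues, had the most. Its 3 peaks stood side by side at 17.0, 17.5 and 17.7 kb from the site toward higher coordinates. They covered chromosome 19 from 18266881 to 18267088 with 11 tags and a fold of 12.7, from 18267385 to 18267591 with 10 tags and a fold of 24.2, and from 18267606 to 18267844 with 15 tags and a fold of 23.3. The group spanned 964 bp, and its 36 tags have an exact Poisson 95% interval of 25.2 to 49.8. That lies above the interval of 5.49 to 19.7 for the 11 tags near FOSL2 or JUNB and of 6.20 to 21.0 for the 12 tags near FOSL1 or JUN. The intervals cover counting error only, and the summed tags come from 3 peaks at JUND against 2 at each of the others. JUND was singled out because it had the most tags, so the intervals are a description and no test.

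Of the 6454 groups left when peaks at most 1 kb apart are taken as 1, 80 (1.24%) held 3 or more peaks, 9 of them on chromosome 19. In 9 of the 80, as at JUND, every peak had at least 10 tags. This minimum was chosen after the values were seen. Of all groups, 133 (2.06%) held at least 36 tags, the sum at JUND, and 9 of these were among the 218 groups on chromosome 19. In the order of protein-coding genes of the RefSeq annotation, JUND is followed on that side by LSM4, PGPEP1 and GDF15, and IQCN comes before it. The peaks cannot be assigned to JUND rather than to a neighbour from position alone, and this holds for each gene below.

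JUNB, a JUN protein that often opposes JUN, had its nearest peak at 4.82 kb, on chromosome 19 from 12764761 to 12764876. This is less than the rounding of the site, so the distance can be anything up to 9.82 kb and the side of the gene on which the peak lies is not known. The peak had 6 tags and a fold of 8.50, lower than all but 2.30% of the list, so it was the weakest of the 11 by that measure. A second peak lay at 44.5 kb, on chromosome 19 from 12804399 to 12804504, with 5 tags and a fold of 13.8. The second peak was on the side of PRDX2, the next gene in order. Below the pair, toward HOOK2, the next peak was 493.4 kb from the site as given.

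JUN, the founding member of its family, had no peak close by. Its nearest peak was at 80.7 kb on chromosome 1, from 59100689 to 59100802, with 6 tags and a fold of 19.6. The other, from 59119751 to 59119900 with 6 tags and a fold of 12.1, was inside the window by only 175 bp. The first one outside, at 124.4 kb, had 5 tags and a fold of 12.5. All 3 were on the side of FGGY in gene order. With the site moved 5 kb down, JUN kept 1 peak, and within 50 kb it had 0.

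The 4 FOS genes split evenly: 2 had peaks within 100 kb and 2 had none. The peaks numbered 4, with 23 tags, where 2.37 peaks over the 4 genes would follow from an even spread. Of positions every 10 kb, 41.8% on chromosome 11 (FOSL1) and 35.2% on chromosome 2 (FOSL2) had a peak midpoint within 100 kb. The share was 53.3% on chromosome 19 (FOSB) and 23.8% on chromosome 14 (FOS). FOSL2, which encodes a FOS protein that lacks the strong activation domain of FOS, had a pair of peaks at its site. They lay on chromosome 2 from 28469129 to 28469278, with 6 tags and a fold of 14.7, and from 28469903 to 28469996, with 5 tags and a fold of 19.6. Their midpoints were 0.80 and 0.05 kb from the site, less than its rounding, so FOSL2 can only be said to have peaks within about 5 kb. Which of FOSL1, FOSL2 and JUNB was nearest to a peak cannot be told at this rounding: FOSL2 was nearest with the sites as given, JUNB with all sites moved 5 kb up (0.182 kb against 5.05 kb for FOSL2) and FOSL1 with all moved 5 kb down (2.26 kb against 4.20 kb). The pair was separated by 624 bp, and 9.73% of peaks in the list had another midpoint within 1 kb. The first peak beyond the pair toward PLB1, the next gene in order, was at 217.0 kb.

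FOSL1, a FOS protein often abundant in invasive carcinoma cells, had peaks on both sides. On chromosome 11 from 65412649 to 65412828, at 7.26 kb toward lower coordinates, a peak had 7 tags and a fold of 16.2. At 19.98 kb toward higher coordinates, from 65439926 to 65440037, another had 5 tags and a fold of 18.6. The third, at 106.2 kb, was outside the window by 6248 bp and had 5 tags and a fold of 12.5. FOSL1 lies between CCDC85B and C11orf68 in gene order. Its surroundings were rich in peaks, with 8.32 per Mb within 5 Mb of the site against 3.10 for chromosome 11. Of the sequence within 5 Mb of the site, 72.3% lay within 100 kb of a peak midpoint.

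FOS and FOSB, the FOS genes induced fastest by growth signals, had no peak within 200 kb. The nearest to FOS was at 282.6 kb, on chromosome 14 from 75102524 to 75102653, with 5 tags and a fold of 12.1. It lay on the side of JDP2 and BATF, genes of other AP-1 partner proteins that follow FOS in order. The nearest on the other side, toward TMED10, was at 664.7 kb. The stretch of 947.2 kb without a peak midpoint was longer than 77.4% of the 133 such gaps on the chromosome. The nearest to FOSB was at 227.0 kb, on chromosome 19 from 50886836 to 50887086, with 11 tags, a fold of 19.5 and a width of 251 bp. On the other side of FOSB, toward ERCC1, it was 269.0 kb away, and the gap of 495.9 kb was longer than 87.5% of the 265 on chromosome 19. For the sites with peaks the same rank ran from 16.3% (FOSL1) to 87.9% (JUNB, in a gap of 498.2 kb). Long gaps cover more positions than short ones, so a high rank does not show a lack of peaks at a gene. A list with so few tags per peak cannot show that the protein was absent there: a site with fewer than 5 tags would not be in it.

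The gene sites were next set against positions of the same chromosomes, since chromosomes differ in how densely they hold peaks. Over positions every 10 kb on the placed sequence of chromosomes 1 to 22 and X, 34.3% had a peak midpoint within 100 kb. The share was 53.3% on chromosome 19 (FOSB, JUNB and JUND), the highest of the 23 chromosomes, 41.8% on chromosome 11 (FOSL1), 35.2% on chromosome 2 (FOSL2), 33.1% on chromosome 1 (JUN) and 23.8% on chromosome 14 (FOS), the lowest but for chromosome 7. Summed over the 7 sites these shares amount to 2.94 sites, and 5 were observed, or 71.4%. From the positions within 5 Mb of each site the sum was 3.32. The JUN genes account for 3 sites against a sum of 1.40, and the FOS genes for 2 against 1.54. Peaks near the sites numbered 11 against 4.75, with the 3 neighbouring peaks at JUND and the 2 at FOSL2 each counted separately. With 7 sites, 3 of them on 1 chromosome, these are descriptions of 1 peak list. The genes and settings were chosen with earlier results of these data known, so the comparison was not a blind one.

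**Figure D2:**
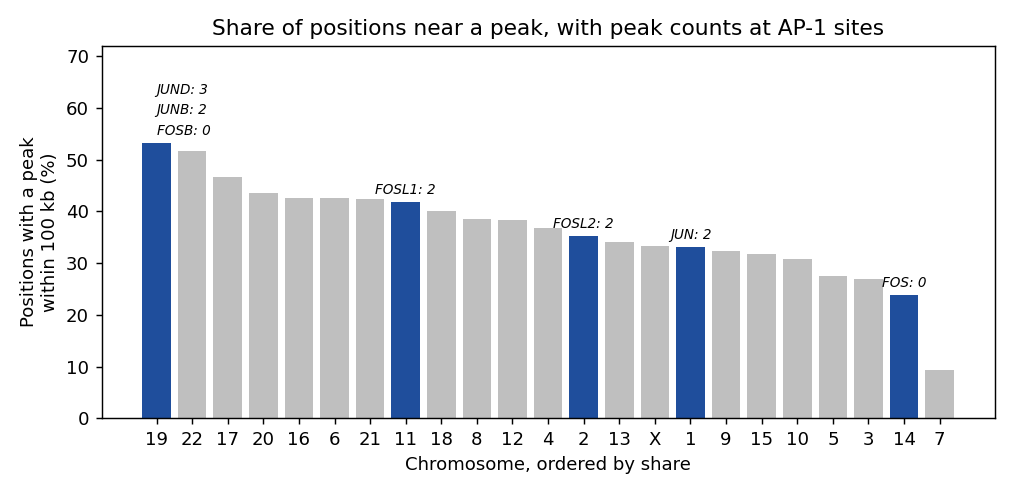
Bars give the percentage of positions, every 10 kb on placed sequence, with a peak midpoint within 100 kb on each chromosome; dark bars hold a gene site, and the number after each gene is its count of peaks within 100 kb. FOS, with 0, is on a chromosome at 23.8%, whereas FOSB, also with 0, shares chromosome 19 at 53.3% with JUNB and JUND.

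Peaks close to a gene site were set against positions in the same way. FOSL1, FOSL2 and JUNB, 3 of the 7 sites, had a peak midpoint within 10 kb, where 4.39% of positions did. With the rounding of the sites, FOSL1 was at 2.26 to 12.3 kb. Of the placed length of chromosome 2, 2.29% lay as near to a peak as the FOSL2 site moved 5 kb up, and 0.0251% as near as the site as given. The corresponding share was 3.69% of chromosome 19 for JUNB as given, and 7.26% or 0.167% with the site moved 5 kb down or up. For FOSL1 it was 4.05% of chromosome 11 as given, and 1.30% or 6.71% with the site moved down or up. For JUND it was 12.1% of chromosome 19. Among positions within 5 Mb the share for FOSL1 was 9.09%. Of chromosome 1, 27.9% lay as near to a peak as the JUN site. The share was 53.6% of chromosome 14 for FOS and 81.0% of chromosome 19 for FOSB. FOSB was thus farther from a peak than most of its chromosome. The median over the 7 sites was 12.1%. Placed length includes gene-poor DNA, and start sites of other genes on hg18 were not analysed here, so whether the AP-1 genes differ from other genes was not tested.

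**Figure D3:**
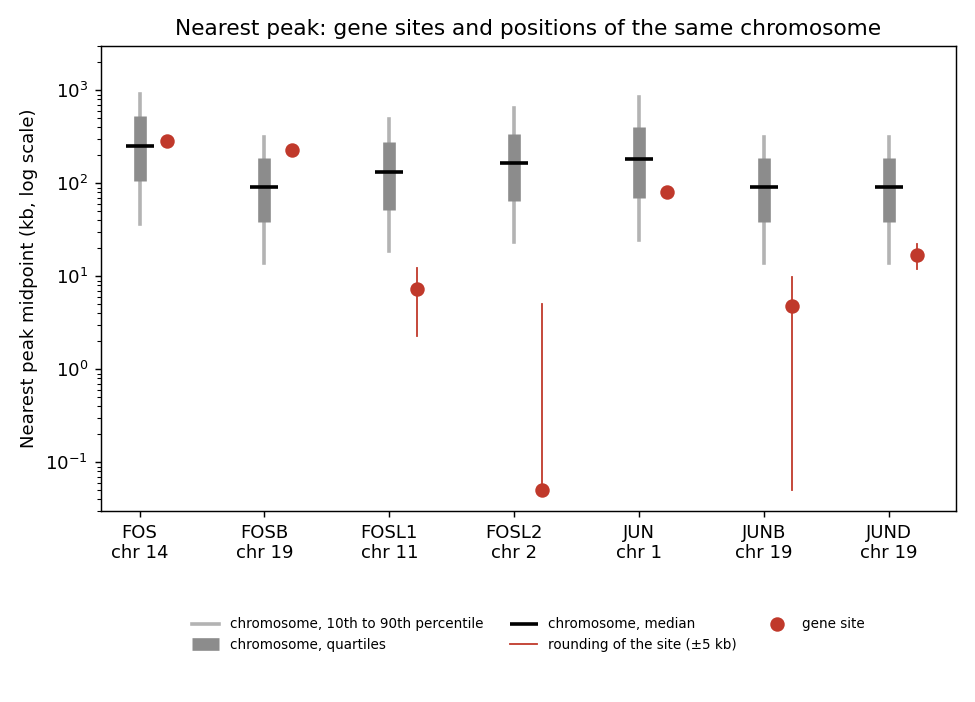
Red points give the distance from each gene site to the nearest peak midpoint in kb on a log axis, with a red line for the rounding of the site (cut off at 0.05 kb); grey bars give the quartiles and the 10th to 90th percentile of the same distance for positions every 10 kb on that chromosome. FOSL1, FOSL2 and JUNB lie below the grey range, JUND in its lower part, and FOS and FOSB above the chromosome's median.

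All 5 sites with a peak had at least 2, which held for 9.28% of all positions and for 27.1% of the positions with any peak. On chromosome 19, with JUNB and JUND, 20.7% of positions had at least 2. When peaks of 5 tags were left out, FOSL1, FOSL2 and JUNB kept 1 peak each, and only JUN and JUND had at least 2. In FOSL2 and JUND the peaks were neighbours less than 1 kb apart. Taken as 1 each, 8 separate places remained, and 3 sites (FOSL1, JUN and JUNB) had 2 of them.

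Fewer gene sites remained near a peak when more tags were required. Among peaks with at least 8 tags, only the group at JUND was left, so that 1 of the 7 sites had a peak within 100 kb. For such peaks the share of positions was 4.29% over all chromosomes and 20.8% on chromosome 19, which carries FOSB, JUNB and JUND. It was 6.58% on chromosome 11, 4.90% on chromosome 1, 3.39% on chromosome 2 and 1.36% on chromosome 14. Beside these shares, 1 site of 7 is not read as an excess. The nearest such peak was then at 227.0 kb for FOSB, 335.7 kb for FOSL1, 386.2 kb for JUN, 729.9 kb for FOSL2, 807.1 kb for JUNB and 1826 kb for FOS. Among peaks with a fold above the list median, JUNB had 0 in the window, and the other 4 sites kept 6 peaks. The peaks within about 10 kb of FOSL1, FOSL2 and JUNB thus had 5 to 7 tags, and those at JUND, at 17.0 kb or more from the site as given, had 10 to 15.

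**Figure D4:**
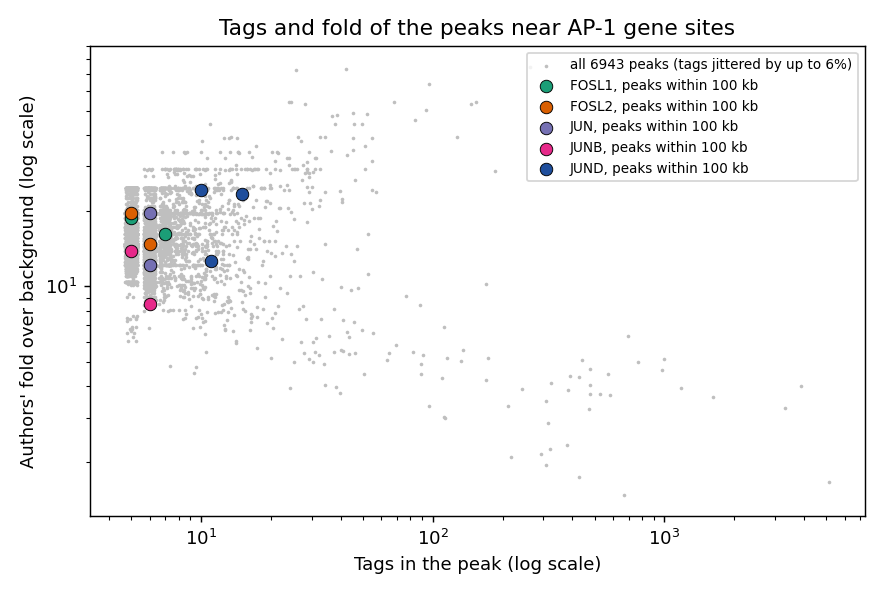
Tags and fold of each peak, as read from the list without a header, both on log axes. All peaks are grey, with tags shifted slightly at random for display, and the 11 near AP-1 gene sites are coloured by gene. The 3 peaks of JUND, at 10 to 15 tags, stand to the right of the other 8, which have 5 to 7 tags as most of the list does.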

How the data were processed

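Chromatin of transfected SKOV-3 cells was sequenced after Flag precipitation (1 library) and before it (1 library, not analysed here). The authors deposited 1 peak list without a header, on hg18 per the submitters' processing notes. Its whole numbers were read as tag counts per peak, deposited unscaled with a minimum of 5. The other deposited value was read as a fold, the authors' ratio of the peak to a background. Both readings come from the values; which aligner, peak caller and cutoffs were used is not given in the sources used here, and total depth is not known.

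Distances run from the gene site to the peak midpoint. Placed contigs and bands of hg18 came from IRanges 2.36.0 and circlize 0.4.16 under R 4.3.3, and computations used Python 3.11.15 with numpy 2.4.6 and pandas 2.3.3. The share of a chromosome as near to a peak as a site is the exact share of placed length, with no random draws, and was tested on simulated data. No p-value was computed. All 7 genes and every peak within 100 kb were named, with the nearest peak at any distance and neighbours from RefSeq order; immediate early and partner genes without hg18 positions were left out, and proteins were not analysed here. The genes, motifs and settings were chosen with earlier results of these data known. Positions are counted from 1. Alternatives were peaks with a fold above the median, above 5 tags or of at least 8 tags, merging within 1 kb, sites moved by 5 kb, windows of 50 and 200 kb, peak edges, and positions of the same Giemsa class, within 5 Mb or with gaps.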

Additional observations from a re-analysis of the deposited data

How the results depend on the processing

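Of 184 comparisons of a value with an alternative, 133 stayed within 1.5 times the value reported and 51 moved. Single sites made up 154 of the comparisons and 46 of those that moved. The number of sites with a peak in the window was 4 to 5 under the alternatives other than the minimum of 8 tags. That minimum left 1 site and 3 peaks in the window. The nearest peak of at least 8 tags, in the window or outside it, was at a median of 386.2 kb over the 7 sites. Peaks with a fold above the list median numbered 6 in the window. The nearest of all such peaks, in the window or outside it, was at a median of 80.7 kb over the 7 sites. These subsets hold fewer peaks by construction. The median share of placed length ranged from 8.75% to 16.8%. Moving all sites by 5 kb gave a median distance of 12.3 or 21.98 kb. Among single sites, JUN had 0 peaks within 50 kb, and FOSL1, FOSL2 and JUNB, the sites nearest to a peak, moved most with the 5 kb shift. The few tags per peak, the absence of a replicate and the rounding of the sites limit every distance and count.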
